A study of Mus musculus with 66 samples.

Results

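Rectal mucosa of mice was compared between day 9 of an experiment with dextran sulfate sodium (DSS) and the uninjured state. DSS is a chemical in the drinking water that strips and inflames the colonic lining. The 7 samples were the rectal sections of 4 uninjured mice (day 0, mice 1 to 4) and of 3 mice killed on day 9 (mice 11 to 13), of 66 bulk RNA samples from 19 mice in the series. They were chosen by the labels alone, as section and day. All mice were wild-type C57BL/6, bought at 6 weeks of age. Age at dissection and sex are not given in the sources used here. The day 9 mice had been exposed to 3% DSS for 6 days from day 0, so they were sampled 3 days after its end, and the day 0 mice had no DSS. RNA came from mucosa, each section having been stripped of its muscle. No allele or transgene distinguishes the groups. Values are TPM, the usual length-adjusted share of all transcripts, summed per gene.

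The rectal lining is a single layer of epithelium folded into crypts. Stem cells at the crypt base feed absorptive colonocytes, which take up salt, water and short-chain fatty acids, and secretory goblet, enteroendocrine and tuft cells. When the layer is breached, bacteria reach the tissue below, resident cells release interleukin-1 and chemokines, neutrophils and then monocytes enter from the blood, and the surviving crypts divide to cover the wound.

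The 7 profiles fell into 2 well separated sets. Pearson's r of log2(TPM + 1) across genes was 0.980 to 0.986 between day 0 mice, 0.945 to 0.973 between day 9 mice and 0.803 to 0.871 between the sets. No count of reads was in the table, so the depth of each library is unknown. Genes with at least 1 TPM numbered 12130 to 12328 at day 0 and 12601 to 13234 at day 9. Mitochondrially encoded transcripts held 16.3% to 20.0% of the TPM at day 0 and 8.05% to 11.6% at day 9. Because TPM is a share, such a shift moves all other values. The epithelial identity of the sections was visible in both groups: Epcam, an epithelial adhesion molecule, stood at 1166 to 1344 TPM at day 0 and at 1249, 791 and 1021 TPM in mice 11, 12 and 13. Libraries of 1 group are from different mice.

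Of 13140 genes tested, 7028 (53.5%) were called at an adjusted p under 0.05 in limma, 4404 higher at day 9 (33.5%) and 2624 lower (20.0%). For 7377 genes (56.1%) no value of one group overlapped those of the other. The median log2 change over all genes tested was 0.13. With TMM factors, a rescaling that assumes most genes do not change, the median was -0.04 and the split turned to 3656 higher and 3991 lower. The balance of genes called higher and lower thus turned with the scaling, and list medians below are given beside 0.13. The rest of the text follows 413 genes in 27 lists of pathways and cell lineages, of which 373 entered the test. Of these, 205 were higher and 100 lower, 191 and 115 with TMM factors. In bulk tissue, more cells of a type and more RNA per cell cannot be told apart, nor can fewer cells and less RNA.

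**Figure D1:**
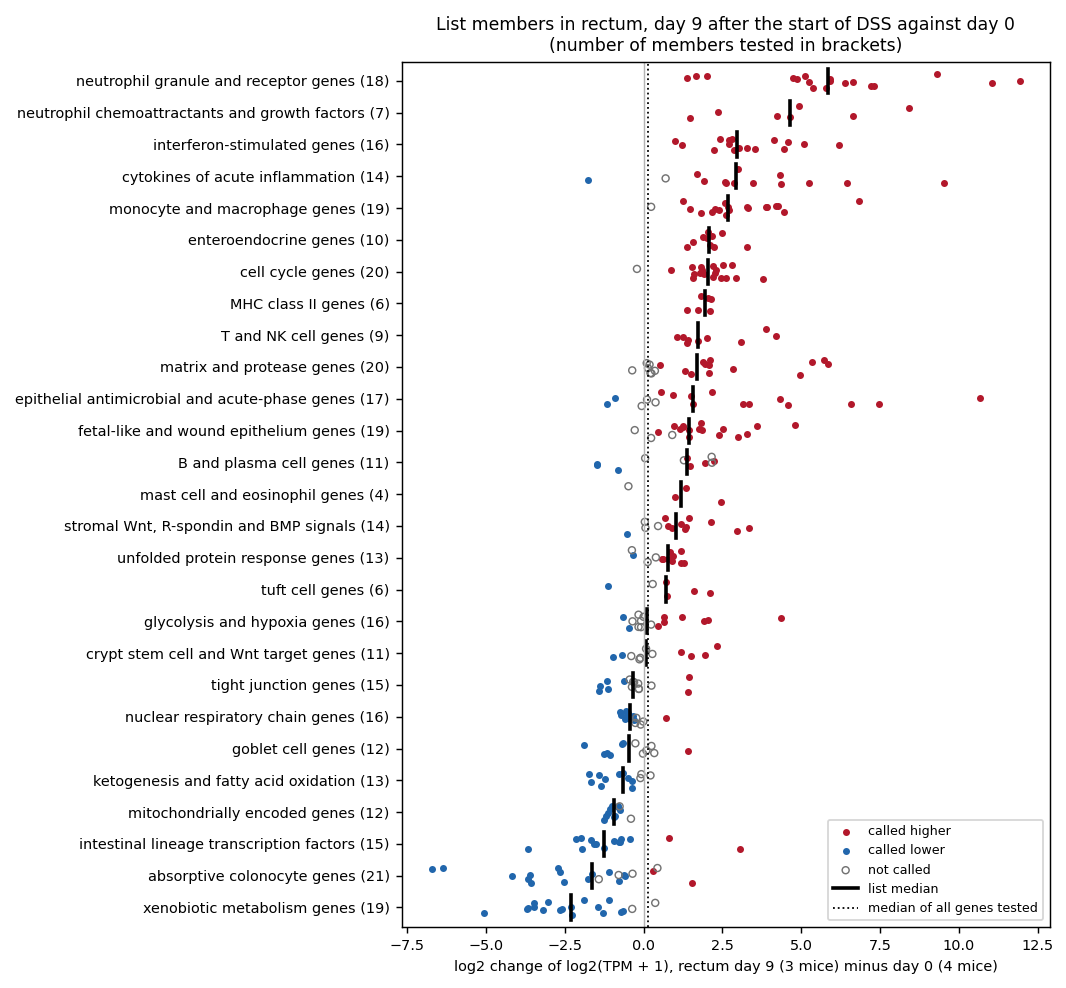
Log2 change of log2(TPM + 1) in rectum, day 9 (3 mice) minus day 0 (4 mice), for each tested member of 27 gene lists; filled points were called in limma, open points were not, black bars are list medians and the dotted line is the median of all genes (0.13). Neutrophil genes lie furthest to the right (median 5.85) and xenobiotic metabolism genes furthest to the left (median -2.30).

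The genes that rose most were products of neutrophils and of acute inflammation. By the naming rule, the 12 largest rises were S100a8, S100a9, Saa3, Il1b, Retnlg, Cxcl2, Acod1, Ccl4, Hp, Stfa2l1, Lcn2 and Il1r2. The rule takes only genes that were called and whose groups did not overlap. All but S100a8, S100a9 and Lcn2 were under 1 TPM in every day 0 mouse. Those genes passed the filter on low values only through the day 9 mice and so had to differ. S100a8 and S100a9, the 2 chains of calprotectin, a zinc-binding protein that fills the neutrophil cytoplasm, rose most of all genes named by the rule. S100a8 was 0, 1.27, 0.715 and 0 TPM in the day 0 mice and 6975, 5487 and 4504 TPM in mice 11, 12 and 13. S100a9 was 1.84, 1.74, 4.22 and 0.247 TPM at day 0 and 5204, 6123 and 5734 TPM at day 9. All 3 injured mice thus stood at a similar level, far from every uninjured mouse, and the log2 changes were 11.95 ± 0.30 (SE, adjusted p = 6.99e-08) and 11.06 ± 0.40 (adjusted p = 3.85e-07). Retnlg, a resistin-like granulocyte protein, was listed at 0 in 3 day 0 mice and at 0.672 TPM in the other, and at 820, 645 and 690 TPM at day 9. Stfa2l1, a stefin-type protease inhibitor of granulocytes, was listed at 0 in every day 0 mouse and at 153, 242 and 259 TPM at day 9. A pseudocount of 1 TPM was added before taking logs, so the size of such changes is understated and depends on it.

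The neutrophil list held 20 genes for granule proteins and receptors. The 18 that entered the test were all called higher (median 5.85), but 13 of them passed the filter on low values only through the day 9 mice and so had to differ. Cxcr2, the receptor for neutrophil chemokines, was 0.142 to 0.296 TPM at day 0 and 27.2, 39.2 and 38.1 TPM at day 9. Csf3r, the receptor for granulocyte colony-stimulating factor, was 0.111 to 0.258 TPM and then 45.2, 81.1 and 96.7 TPM. Il1r2, a decoy receptor that binds interleukin-1 without signalling, was 0.178 to 0.458 TPM and then 282, 172 and 196 TPM. For these 3 receptors the lowest injured mouse was far above the highest uninjured mouse. Granule protein genes were uneven. The granule enzymes Mpo (0.198 to 0.478 TPM at day 9) and Elane (listed at 0 in all 7 mice) were too low to test, the granule peptide gene Camp reached 4.29, 2.09 and 1.55 TPM, and Ngp went from at most 0.161 TPM to 74.0, 48.3 and 22.4 TPM. Ly6g, the usual neutrophil surface marker, was already at 602 to 736 TPM in uninjured rectum and at 1400, 2078 and 1534 TPM at day 9. It belongs to a family of near-identical Ly6 genes between which reads can be split, so its level is uncertain.

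**Figure D2:**
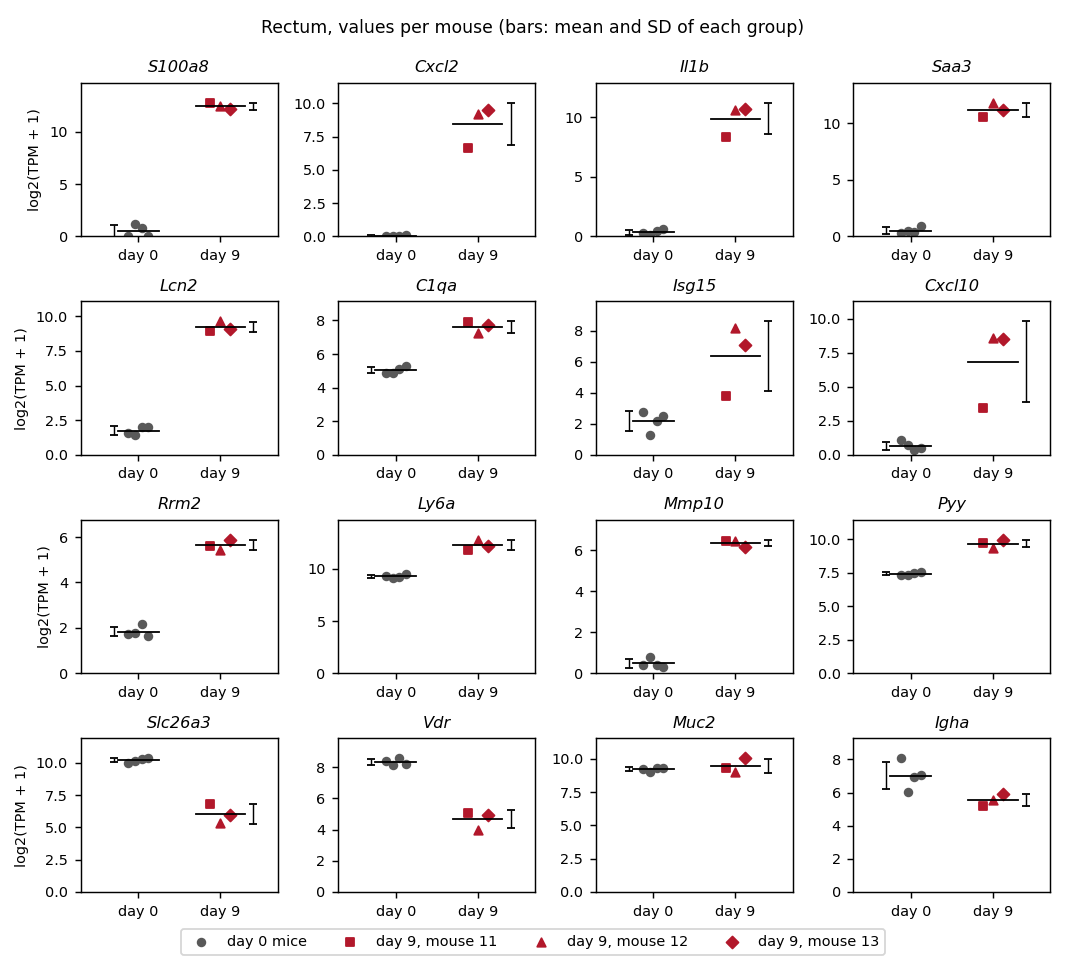
Log2(TPM + 1) of 16 genes in each rectal sample; grey points are the 4 day 0 mice, red symbols the day 9 mice 11 (square), 12 (triangle) and 13 (diamond), and bars the mean and SD of each group. The 3 day 9 mice lie close together for S100a8, Rrm2 and Mmp10, whereas mouse 11 lies below the other 2 for Isg15 and Cxcl10.

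Signals that draw neutrophils into tissue or expand them in the marrow rose with them. Of 8 listed, 7 were tested and all 7 were called higher (6 with TMM factors), 4 of them having passed the filter only through day 9. Cxcl2, a ligand of Cxcr2, was listed at 0 in 3 day 0 mice and at 0.0697 TPM in the fourth, and at 98.3, 594 and 723 TPM in mice 11, 12 and 13. Cxcl5, a related chemokine, was 4.55 to 6.23 TPM and then 166, 285 and 162 TPM (log2 change 4.94 ± 0.21, adjusted p = 1.07e-06). Cxcl1 rose from 0.150 to 0.805 TPM to 30.4, 32.0 and 41.3 TPM. Csf3, which encodes granulocyte colony-stimulating factor, was listed at 0 in every day 0 mouse and at 7.68, 20.2 and 33.9 TPM at day 9. Groups did not overlap for any of these, although the injured mice differed up to several-fold among themselves. Ppbp was high in mouse 11 alone (203, 25.2 and 13.6 TPM against 2.49 to 12.1 TPM). Its call (adjusted p = 0.0418) did not hold under TMM scaling (adjusted p = 0.0585), in the fit to all 19 rectal samples (0.256), and when any of mice 1 (0.0638), 2 (0.0646), 3 (0.0519), 4 (0.0955), 11 (0.074) or 12 (0.0533) was left out.

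Of 18 cytokines and related signals of acute inflammation, 14 were tested, 12 rose and 1 fell, with a median log2 change of 2.94. Of the 14, 8 passed the filter only through day 9. Il1b, the secreted interleukin-1 of myeloid cells, was 0.0777 to 0.498 TPM at day 0 and 326, 1592 and 1603 TPM at day 9 (log2 change 9.54 ± 0.51, adjusted p = 2.81e-06). Il1a was 0.196 to 0.537 TPM and then 23.3, 273 and 250 TPM. Tnf, the prototype of its superfamily, was 0.103 to 0.219 TPM and then 20.4, 60.4 and 63.9 TPM. In each of these mouse 11 was the lowest of the injured mice and still above every uninjured mouse. Il33, an alarm signal held in the nuclei of stromal and epithelial cells, was far more even, at 5.62 to 7.08 TPM and then 66.5, 76.8 and 94.4 TPM (log2 change 3.46 ± 0.15, adjusted p = 1.03e-06). Osm, a gp130 cytokine that acts on stroma, rose from at most 0.175 TPM to 7.48, 29.0 and 41.2 TPM. Il6 and Il22, both listed at 0 in every day 0 mouse, reached 2.41 to 7.66 TPM and 3.62 to 9.45 TPM. The exception was Il18, an epithelial interleukin-1 relative, which fell from 150 to 182 TPM to 49.1, 67.1 and 36.3 TPM (log2 change -1.77 ± 0.19, adjusted p = 9.4e-05). Lif did not pass the test (log2 change 0.70 ± 0.41, adjusted p = 0.18).

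Genes switched on by interferons rose as a group in 2 of the 3 injured mice and much less in the remaining 1. All 16 listed were tested and called higher (median 2.96), 15 with TMM factors. Of the 16, 3 passed the filter only through day 9. Isg15, a ubiquitin-like protein, was 5.78, 1.44, 3.63 and 4.72 TPM at day 0 and 13.0, 281 and 133 TPM in mice 11, 12 and 13 (log2 change 4.14 ± 0.89, adjusted p = 0.00418). Cxcl10, a chemokine for activated T cells, was 0.261 to 1.11 TPM and then 9.68, 383 and 369 TPM (log2 change 6.19 ± 1.11, adjusted p = 0.0016). Gbp2, a guanylate-binding protein, was 9.11 to 24.3 TPM and then 121, 989 and 419 TPM. Mouse 11 was again the lowest for each, and for Irf7, Oasl2 and Rsad2 it lay within the day 0 range (Oasl2 18.4 TPM against 6.27 to 19.2 TPM). Ifng, the T and NK cell interferon, was 0 to 0.136 TPM at day 0 and 0.246, 31.7 and 22.7 TPM at day 9, with too few values above 1 TPM to be tested. The calls for Irf7 and Rsad2 were lost when mouse 12 (adjusted p 0.125 and 0.113) or mouse 13 (0.124 and 0.115) was left out, and also without mouse 2 (0.0735 and 0.0594) or 3 (0.0698 and 0.0678). Without mouse 4 (0.0812) or with TMM factors (0.107) Irf7 was lost, and without mouse 1 (0.0616) Rsad2.

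Promoter sequence is shown for 4 of these genes because most tested members of the chemokine and interferon lists rose and textbook regulators of each, nuclear factor kappa B and the interferon-activated STAT and IRF factors, have short recognition motifs. The windows run from 250 bases before to 50 after the RefSeq transcription start on build GRCm38.p6, written 5' to 3' along the gene. Capitals mark matches, on either strand, to an interferon-response-type motif (TTTCNNTTT) or a kappa B-type motif (GGANTTTCC).
Isg15, chr4:156200769-156201068, minus strand: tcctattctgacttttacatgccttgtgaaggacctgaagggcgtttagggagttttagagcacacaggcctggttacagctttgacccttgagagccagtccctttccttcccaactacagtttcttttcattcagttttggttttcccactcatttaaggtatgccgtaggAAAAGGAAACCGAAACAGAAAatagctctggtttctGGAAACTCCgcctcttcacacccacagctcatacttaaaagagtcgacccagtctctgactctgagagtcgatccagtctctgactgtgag
Ifit1, chr19:34640639-34640938, plus strand: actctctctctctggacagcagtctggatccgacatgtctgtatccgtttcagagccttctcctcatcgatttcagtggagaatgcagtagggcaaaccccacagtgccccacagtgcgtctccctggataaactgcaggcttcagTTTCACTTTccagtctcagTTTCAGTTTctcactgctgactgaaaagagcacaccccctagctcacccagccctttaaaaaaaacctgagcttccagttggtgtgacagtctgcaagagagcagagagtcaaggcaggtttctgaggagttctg
Cxcl10, chr5:92348840-92349139, minus strand: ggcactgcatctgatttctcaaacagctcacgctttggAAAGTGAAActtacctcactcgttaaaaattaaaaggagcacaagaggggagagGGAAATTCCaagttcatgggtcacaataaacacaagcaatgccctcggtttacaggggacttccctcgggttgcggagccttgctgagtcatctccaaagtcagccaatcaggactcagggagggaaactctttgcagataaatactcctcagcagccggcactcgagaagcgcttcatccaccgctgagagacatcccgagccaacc
Cxcl2, chr5:90903649-90903948, plus strand: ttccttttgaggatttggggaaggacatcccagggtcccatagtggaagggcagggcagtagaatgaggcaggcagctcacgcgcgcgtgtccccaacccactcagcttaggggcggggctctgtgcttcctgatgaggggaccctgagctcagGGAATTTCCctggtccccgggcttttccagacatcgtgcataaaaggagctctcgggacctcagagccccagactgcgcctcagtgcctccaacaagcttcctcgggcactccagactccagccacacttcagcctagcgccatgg

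In Isg15 the interferon-response-type motif matched at 77, 71 and 65 bases before the start, overlapping one another, and the kappa B-type motif at 41 bases. Ifit1 held 2 interferon-response-type matches, at 104 and 85 bases, Cxcl10 held 1 of each kind, at 212 and 158 bases, and Cxcl2 held a kappa B-type match at 96 bases. The interferon-response-type motif was present in 3466 of 32851 windows of all genes (10.6%). It was present in 7 of the 12 genes of the interferon list for which a window was found (58.3%). In the other lists it was in 3 of 15 antimicrobial, 3 of 19 neutrophil, 1 of 14 cytokine and 0 of 6 neutrophil-attracting genes. For lists a gene counts once, if any of its windows matched, so shares of lists and of all windows are in unlike units. The kappa B-type motif was present in 412 windows of all genes (1.25%). By gene it was in 4 of 6 of the neutrophil-attracting list (66.7%, Csf1, Cxcl1, Cxcl2 and Cxcl3) and in 2 of 12 of the interferon list. It was in 1 of 14 of the cytokine list, in 0 of 15 of the antimicrobial list and in 0 of 19 of the neutrophil list. A STAT-type motif (TTCNNNGAA) was in 2726 windows (8.3%) and in 3 of the 12 interferon genes. By gene it was also in 3 of 15 antimicrobial, 3 of 19 neutrophil, 1 of 14 cytokine and 0 of 6 neutrophil-attracting genes. These are letter matches in a short window and say nothing of binding.

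Monocyte and macrophage genes rose, some evenly across the injured mice and some not. Of 19 listed and tested, 18 were called higher (median 2.68), 2 of them, Spp1 and Chil3, having passed the filter only through day 9, and Cx3cr1, a receptor of resident macrophages, was not (1.23 to 1.54 TPM, then 1.21, 1.59 and 2.89 TPM, adjusted p = 0.346). C1qa, a complement chain of tissue macrophages, was 28.1 to 37.4 TPM and then 235, 149 and 207 TPM (log2 change 2.57 ± 0.18, adjusted p = 8.86e-06). Cd68, a lysosomal protein, was 8.45 to 11.7 TPM and then 103, 92.4 and 127 TPM. Lyz2, the lysozyme of myeloid cells, was 116 to 185 TPM and then 1038, 834 and 962 TPM. For these 3 the injured mice spanned less than 2-fold. Mrc1, the mannose receptor of resident macrophages, was 7.33 to 9.65 TPM and then 45.7, 14.7 and 22.8 TPM. The monocyte genes Ccr2 (1.45 to 1.93 TPM, then 5.43, 20.4 and 14.6 TPM) and Ly6c2 (1.21 to 4.60 TPM, then 19.0, 60.9 and 36.7 TPM) had the opposite order, with mouse 11 lowest and mouse 12 highest. Chil3 was 0.0790 to 0.566 TPM and then 166, 165 and 93.3 TPM, Spp1 at most 0.777 TPM and then 16.2, 36.3 and 30.7 TPM, and Arg1, arginase, 0.895 to 6.07 TPM and then 92.8, 139 and 52.8 TPM. The monocyte chemokines Ccl2 and Ccl7 rose by 4.19 ± 0.32 and 3.88 ± 0.17 on the log2 scale (adjusted p = 1.5e-05 and 1.15e-06).

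Lymphocyte genes changed in both directions. All 9 of 14 T and NK cell genes that could be tested were called higher (median 1.73), 5 of them having passed the filter only through day 9. Gzma and Gzmb, granule proteases of cytotoxic cells, stood at 10.4, 39.4 and 16.4 TPM and at 11.8, 30.7 and 12.9 TPM at day 9, each under 0.3 TPM at day 0. Cd3g, a chain of the T cell receptor complex, was 0.454 to 1.28 TPM and then 4.94, 6.19 and 5.57 TPM (log2 change 1.73 ± 0.19, adjusted p = 0.000115). Of 12 B cell and plasma cell genes listed, 11 were tested, 4 were called higher and 3 lower. These shares were near the 33.5% higher and 20.0% lower of all genes. The plasma cell genes Igha (63.9 to 265 TPM, then 35.1, 46.6 and 57.9 TPM), Jchain (26.4 to 114 TPM, then 16.7, 16.8 and 19.5 TPM) and Tnfrsf17 (0.955 to 1.14 TPM, then 0.108, 0.0934 and 0.337 TPM) were lower in every injured mouse. Tnfrsf17, however, passed the filter only through the day 0 mice and so had to differ. Mzb1, also a plasma cell gene, overlapped between the groups (0.949 to 4.80 TPM, then 2.31, 3.42 and 3.83 TPM). In the fit to all 19 rectal samples the calls for Igha and Jchain were lost (adjusted p 0.2 and 0.148). The tested B cell genes overlapped between groups, being higher in mice 1 and 4 than in mice 2 and 3 at day 0, and 1 rather than 4 were called higher with TMM factors. Without mouse 12 or mouse 13 the count was 0. Cd79a, a chain of the B cell receptor, was 3.97, 0.177, 0.239 and 9.96 TPM at day 0 and 7.92, 7.28 and 30.9 TPM at day 9 (adjusted p = 0.0549). How many lymphoid follicles each section held is not given in the sources used here.

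Antimicrobial and acute-phase genes rose unevenly. Of 18 listed, 17 were tested, 12 were called higher and 2 lower, with 4 having passed the filter only through day 9. The share of these transcripts from epithelium was not tested. Saa3, a serum amyloid A of macrophages and epithelium, was 0.211 to 0.908 TPM and then 1524, 3591 and 2306 TPM (log2 change 10.68 ± 0.28, adjusted p = 7.73e-08). Lcn2, lipocalin 2, which withholds iron from bacteria, was 1.68 to 3.05 TPM and then 491, 794 and 540 TPM (log2 change 7.46 ± 0.21, adjusted p = 1.15e-07). Saa1, in contrast, was already abundant in uninjured rectum (1496 to 2856 TPM) and reached 5955, 4350 and 6055 TPM (log2 change 1.56 ± 0.24, adjusted p = 0.000631). Slpi, a secreted inhibitor of neutrophil elastase, was 44.5 to 85.0 TPM and then 1270, 1643 and 1661 TPM. Duox2 and its maturation factor Duoxa2, which make hydrogen peroxide at the cell surface, rose by 3.16 ± 0.25 and 4.34 ± 0.23 on the log2 scale. Nos2, inducible nitric oxide synthase, was 0.239 to 0.373 TPM and then 29.7, 379 and 171 TPM, again lowest in mouse 11. The 2 that fell were Lypd8, a protein that keeps flagellated bacteria from the surface (25310 to 28401 TPM, then 15725, 14761 and 12953 TPM), and Pigr, the immunoglobulin A transporter (764 to 935 TPM, then 645, 256 and 375 TPM, adjusted p = 0.006).

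The largest falls included genes of absorptive colonocytes and of metabolism. By the naming rule the 12 were S100g, Cyp2c55, Cyp2c68, Dio1, Mptx1, Selenbp1, Slc37a2, Pck1, Slc26a3, Cyp2f2, Mettl7a2 and Dbp. Of these, Cyp2f2 and Mettl7a2 passed the filter only through the day 0 mice and so had to differ. S100g, calbindin-D9k, which carries calcium across the cell, was 188, 197, 599 and 170 TPM at day 0 and 1.85, 1.33 and 0.962 TPM at day 9 (log2 change -6.72 ± 0.41, adjusted p = 5.49e-06). Dio1, a deiodinase of thyroid hormone, was 98.3 to 115 TPM and then 2.81, 2.57 and 2.19 TPM (log2 change -4.92 ± 0.12, adjusted p = 6.99e-08). Both groups were tight for Dio1 and for Slc37a2, a sugar phosphate carrier (140 to 154 TPM, then 4.98, 6.15 and 6.26 TPM). Pck1, an enzyme of gluconeogenesis, was 51.1 to 52.5 TPM and then 2.91, 0.756 and 1.52 TPM. Dbp, an output gene of the circadian clock, was 82.6 to 101 TPM and then 3.10, 5.45 and 7.59 TPM. The hour of dissection is not given in the sources used here, and its part in the change of Dbp was not tested.

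Of 22 absorptive colonocyte genes, 21 were tested, 15 were called lower and 2 higher, with a median log2 change of -1.63 (-1.76 relative to all genes). Slc26a3, the chloride and bicarbonate exchanger whose loss causes chloride diarrhoea, was 1011 to 1291 TPM and then 112, 38.6 and 60.6 TPM (log2 change -4.17 ± 0.30, adjusted p = 1.14e-05). Aqp8, a water channel, was 828 to 1186 TPM and then 38.9, 105 and 117 TPM. Slc5a8, a carrier of short-chain fatty acids, was 92.9 to 103 TPM and then 16.9, 16.3 and 9.81 TPM. Mep1a, a brush border protease, was 342 to 395 TPM and then 37.7, 18.6 and 34.6 TPM. Trpv6, the apical calcium channel that works with calbindin-D9k, was 19.0 to 31.3 TPM and then 1.79, 0.867 and 0.995 TPM. In each case the highest injured mouse lay far below the lowest uninjured mouse. Vil1, villin of the microvillus core, changed less and went from 270 to 324 TPM to 207, 162 and 247 TPM (log2 change -0.58 ± 0.15, adjusted p = 0.00964). The epithelial sodium channel subunits Scnn1b and Scnn1g were low in mouse 12 (4.77 and 5.05 TPM) and highest of the injured mice in mouse 11 (39.0 and 42.3 TPM), against 25.7 to 29.1 and 39.8 to 61.7 TPM at day 0, and neither was called. Slc51b, part of the basolateral bile acid exporter, went up from 15.4 to 22.8 TPM to 33.1, 115 and 47.9 TPM (adjusted p = 0.00679), while its partner Slc51a was at or near 0 in all 7 mice. Krt20, a keratin of surface cells, was 585 to 721 TPM and then 809, 866 and 773 TPM (adjusted p = 0.0416). That call did not hold under TMM scaling (adjusted p = 0.615) or without mouse 2 (0.103), 3 (0.0539), 4 (0.106), 11 (0.0649), 12 (0.0881) or 13 (0.0545).

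Transcription factors that set intestinal identity were mostly lower: of 15 listed and tested, 13 fell and 2 rose (median -1.27). Vdr, the vitamin D receptor, whose textbook targets include S100g and Trpv6, was 287 to 379 TPM and then 33.1, 15.0 and 30.3 TPM (log2 change -3.66 ± 0.25, adjusted p = 8.89e-06). Hnf4a, a master regulator of enterocyte genes, was 196 to 247 TPM and then 98.3, 77.0 and 99.2 TPM (log2 change -1.27 ± 0.13, adjusted p = 7.4e-05), and its relative Hnf4g was 14.1 to 21.8 TPM and then 4.95, 4.05 and 3.34 TPM. Nr3c2, the mineralocorticoid receptor, fell by 2.14 ± 0.28 on the log2 scale. Hoxb13, a homeobox factor of the distal bowel, fell by 1.96 ± 0.20. The caudal factors went opposite ways. Cdx1 was lower (94.4 to 133 TPM, then 71.6, 54.2 and 72.6 TPM, adjusted p = 0.0043) and Cdx2 higher (2.24 to 4.54 TPM, then 7.95, 5.26 and 7.13 TPM, adjusted p = 0.0118, 0.0694 in the fit to all 19 rectal samples). Isx, a homeobox repressor of vitamin A uptake genes, was 0.0673 to 0.666 TPM and then 11.0, 7.71 and 10.1 TPM (log2 change 3.06 ± 0.20). It passed the filter only through day 9 and so had to differ.

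Drug and xenobiotic metabolism was the list with the deepest fall: 17 of 19 genes were lower, 0 were higher, and the median was -2.30. Cyp2c55 was 649 to 1186 TPM and then 36.1, 1.53 and 8.18 TPM (log2 change -6.37 ± 0.74, adjusted p = 0.000148). Abcb1a, the P-glycoprotein efflux pump, was 344 to 491 TPM and then 47.5, 15.6 and 33.9 TPM (log2 change -3.71 ± 0.32, adjusted p = 3.03e-05). Ugt1a1, which conjugates bilirubin and drugs, was 21.9 to 30.7 TPM and then 0.818, 0.443 and 3.88 TPM, although transcripts of the Ugt1a locus share exons and its share is uncertain. Ces2a, a carboxylesterase, was 198 to 277 TPM and then 32.1, 13.4 and 21.7 TPM. Mouse 11 kept the highest level of the injured mice for Cyp2c55, Abcb1a and Ces2a. Nr1i2, the pregnane X receptor that induces several of these genes, fell by 1.43 ± 0.13 on the log2 scale (adjusted p = 3.98e-05). Ces1f and Gsta4 did not pass the test (adjusted p = 0.322 and 0.147).

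Energy metabolism fell more modestly. Of 13 tested genes of ketogenesis and fatty acid oxidation, 10 were lower and 0 higher (median -0.66). Acadm, the medium-chain acyl-CoA dehydrogenase, was 109 to 122 TPM and then 42.7, 28.1 and 34.6 TPM (log2 change -1.68 ± 0.14, adjusted p = 2.79e-05), and Cpt1a, the gate of mitochondrial fatty acid entry, was 66.6 to 95.5 TPM and then 36.0, 24.3 and 35.1 TPM. Of 12 tested mitochondrially encoded genes 10 were lower and 0 higher (median -0.92). Of 16 nuclear respiratory chain genes 11 were lower and 1 higher (median -0.41). The gene that rose was Ndufa4, at 227 to 269 TPM and then 405, 461 and 344 TPM (log2 change 0.70 ± 0.13, adjusted p = 0.00174). The mitochondrially encoded mt-Co1, a cytochrome oxidase subunit, was 36375 to 41452 TPM and then 21374, 18654 and 15868 TPM (log2 change -1.07 ± 0.13, adjusted p = 0.000188). Of 16 glycolysis genes 7 were higher and 2 lower (4 and 3 with TMM factors), beside 33.5% higher and 20.0% lower of all genes. Pfkfb3, which makes an activator of glycolysis, was 1.48 to 2.65 TPM and then 34.6, 84.6 and 75.3 TPM, Hk2, hexokinase 2, was 36.9 to 57.0 TPM and then 98.1, 260 and 289 TPM, while Ldha was not called (1771 to 2067 TPM, then 1698, 1908 and 1776 TPM, adjusted p = 0.544).

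Goblet cell genes did not move together. Of 12 listed and tested, 6 were lower and 1 higher (median -0.45). Muc2, the mucin that forms the colonic gel, was not called: 510 to 643 TPM at day 0 and 633, 523 and 1052 TPM at day 9 (log2 change 0.25 ± 0.22, adjusted p = 0.371). Zg16, a lectin of the mucus, was not called either (5100 to 6871 TPM, then 8759, 5476 and 7953 TPM). Clca1, a mucus-processing protease, fell from 1962 to 2529 TPM to 1196, 830 and 1103 TPM (log2 change -1.15 ± 0.15, adjusted p = 0.00028), and Agr2, which folds mucin, fell from 933 to 1315 TPM to 467, 536 and 585 TPM. Atoh1, the secretory lineage factor, fell from 9.68 to 14.0 TPM to 5.44, 3.18 and 4.22 TPM. Galnt3, a glycosyltransferase that starts mucin O-glycans, rose from 19.6 to 25.5 TPM to 54.5, 63.6 and 68.0 TPM.

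Enteroendocrine genes rose in all 3 injured mice. All 10 tested of 12 listed were called higher (median 2.07), 1 having passed the filter only through day 9. Gcg, the precursor of glucagon-like peptides, was 12.7, 13.9, 11.4 and 12.5 TPM at day 0 and 146, 111 and 139 TPM at day 9 (log2 change 3.28 ± 0.13, adjusted p = 6.67e-07). Pyy, peptide YY of the same L cells, was 161 to 183 TPM and then 835, 658 and 959 TPM (log2 change 2.23 ± 0.14, adjusted p = 5.64e-06). Insl5, a hormone of distal L cells, was 34.3 to 63.6 TPM and then 161, 235 and 223 TPM. Tph1, which makes serotonin in enterochromaffin cells, was 1.60 to 3.02 TPM and then 28.7, 15.0 and 12.9 TPM, and Chga, chromogranin A, was 7.89 to 12.4 TPM and then 62.9, 23.1 and 44.4 TPM. The L cell hormones were even across the injured mice, while Tph1 and Chga were highest in mouse 11. Tuft cell genes were sparse, with 4 of 6 tested higher and 1 lower, and the defining factor Pou2f3 stayed under 0.3 TPM in all 7 mice.

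Genes of dividing cells were higher in every injured mouse. Of 20 cell cycle genes 19 were called higher (median 2.06), and Cdkn1a, an inhibitor of the cycle, was not (adjusted p = 0.428). Mki67 was 14.1 to 16.3 TPM and then 51.3, 49.6 and 45.2 TPM (log2 change 1.60 ± 0.11, adjusted p = 9.28e-06). Rrm2, the ribonucleotide reductase subunit that supplies nucleotides in S phase, was 2.17 to 3.45 TPM and then 47.7, 42.7 and 57.6 TPM (log2 change 3.80 ± 0.17, adjusted p = 1.15e-06). The replication helicase subunits Mcm2 to Mcm6 rose by 2.31 to 2.93 on the log2 scale. Mitotic genes ran from 0.88 ± 0.19 for Plk1, a mitotic kinase, to 2.28 ± 0.17 for Ccnb1, cyclin B1. The bulk values do not tell which cells divided. Of 11 tested stem cell and Wnt target genes, 4 were higher, 1 of which passed the filter only through day 9, and 2 lower (median 0.08). These shares were near the 33.5% higher and 20.0% lower of all genes. Axin2, a direct Wnt target, was not called (1.78 to 2.42 TPM, then 2.57, 2.35 and 3.29 TPM, adjusted p = 0.155). Lgr5, the stem cell receptor, stayed under 1 TPM in all 7 mice. Sox9 fell from 8.28 to 12.4 TPM to 3.18, 4.57 and 7.58 TPM (adjusted p = 0.00957), and Myc rose from 3.25 to 3.67 TPM to 14.2, 19.2 and 35.1 TPM (adjusted p = 0.000121). Olfm4 was listed at 0 in all day 0 mice and reached 3.08, 3.56 and 2.16 TPM.

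Genes reported in wounded or fetal-like epithelium were mostly higher, 16 of 19 tested (median 1.45), with 0 lower and 1 having passed the filter only through day 9. Ly6a (Sca-1), a surface protein of injured crypts and of many other cells, was 550 to 738 TPM and then 3684, 7018 and 4766 TPM (log2 change 3.00 ± 0.21, adjusted p = 9.32e-06). Plaur, the urokinase receptor, was 2.98 to 4.55 TPM and then 58.2, 176 and 206 TPM. Anxa1, an annexin of wound edges, was 431 to 537 TPM and then 1825, 2243 and 1343 TPM. The growth factors Areg and Ereg, ligands of the epidermal growth factor receptor, were 11.5 to 18.5 and 0.755 to 1.31 TPM and then 31.1, 62.6 and 76.1 TPM and 13.8, 15.4 and 26.2 TPM. Clu, used as a marker of a revival stem cell, was not called (11.0 to 41.7 TPM, then 30.7, 17.3 and 107 TPM, adjusted p = 0.266), its day 9 value being high in mouse 13 only. Several of these genes are also expressed by the immune cells whose genes rose, and the share from epithelium was not tested.

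Protease and matrix genes did not all change. Of 20, 13 were called higher and 0 lower (median 1.69), 4 having passed the filter only through day 9. The stromelysins Mmp3 and Mmp10, which cut many matrix proteins, were 0.232 to 1.06 and 0.251 to 0.738 TPM and then 73.3, 78.6 and 98.9 TPM and 85.4, 84.9 and 70.6 TPM. Mmp13, a collagenase, was 0.605 to 0.975 TPM and then 56.3, 101 and 66.7 TPM. Timp1, an inhibitor of these enzymes, rose from 2.16 to 3.43 TPM to 94.2, 113 and 118 TPM (log2 change 4.96 ± 0.16, adjusted p = 2.75e-07), whereas Timp3 was not called (adjusted p = 0.308). The fibrillar collagen genes Col1a1 and Col1a2 were not called (adjusted p = 0.741 and 0.468), with 19.0 to 25.9 TPM and then 21.2, 17.7 and 37.0 TPM for Col1a1. Col3a1 overlapped between groups (229 to 274 TPM, then 363, 262 and 473 TPM). Other matrix genes did not overlap and were higher at day 9. Tnc was 3.57 to 4.71 TPM and then 22.1, 9.62 and 35.5 TPM. Col4a1 was 8.74 to 11.8 TPM and then 35.4, 17.2 and 45.3 TPM. Among stromal niche signals 10 of 14 tested were higher and 1 lower, 2 having passed the filter only through day 9. Grem1, a bone morphogenetic protein antagonist that protects stem cells, was 4.80 to 7.00 TPM and then 92.5, 28.9 and 107 TPM (log2 change 3.34 ± 0.40, adjusted p = 0.000175). Nrg1, neuregulin 1, was 0.321 to 0.422 TPM and then 9.39, 8.15 and 11.6 TPM, and Rspo3, which amplifies Wnt signals, was 1.92 to 1.98 TPM and then 8.80, 3.70 and 10.4 TPM. Mouse 12 was the lowest of the injured mice for all 3, and it was also low in smooth muscle genes (Myh11 4.00 TPM, against 46.6 and 67.5 TPM in mice 11 and 13). The part of that difference in section makeup was not tested.

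Barrier and folding genes showed smaller shifts. Of 15 tested tight junction genes 5 were lower and 2 higher (11 lower with TMM factors), beside 20.0% lower and 33.5% higher of all genes. Ocln, occludin, was 130 to 160 TPM and then 70.6, 51.2 and 49.5 TPM (log2 change -1.37 ± 0.15, adjusted p = 9.23e-05), and Cldn3 was 351 to 522 TPM and then 215, 167 and 228 TPM. Cldn8, a sealing claudin of the distal colon, was 57.4 to 72.0 TPM and then 40.5, 21.8 and 22.1 TPM (adjusted p = 0.00194), while Cldn4 rose from 27.9 to 67.5 TPM to 94.1, 135 and 133 TPM (adjusted p = 0.00238). Cldn2, a pore-forming claudin, was not called (adjusted p = 0.591). Of 13 tested genes of the unfolded protein response 9 were higher and 1 lower (median 0.77). Hspa5, the main chaperone of the endoplasmic reticulum, was 246 to 334 TPM and then 430, 697 and 812 TPM (adjusted p = 0.00174), and Ddit3, its death-linked arm, was not called (adjusted p = 0.48). All 6 tested of 7 MHC class II genes were higher (median 1.94): H2-Aa was 83.3 to 162 TPM and then 323, 545 and 594 TPM, lowest in mouse 11. Of 4 tested mast cell genes 3 were higher, 1 having passed the filter only through day 9, and the eosinophil gene Epx was listed at 0 in all 7 mice.

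Markers of cells that a section could also hold were read in the same fit. Erythroid genes were all higher (5 of 5, 1 having passed the filter only through day 9), with a summed level of 102 to 146 TPM at day 0 and 1134 to 2607 TPM at day 9. Smooth muscle markers were called in 0 of 6, summing to 657 to 808 TPM at day 0 and 139 to 978 TPM at day 9, lowest in mouse 12. Skeletal muscle markers were called in 0 of 4 tested, summing to 10.7 to 35.1 TPM and 6.29 to 144 TPM, highest in mouse 13. Squamous epithelium, the lining of the neighbouring anus, gave 4 of 9 tested higher and 0 lower (3 and 1 with TMM factors). Of all genes 33.5% were higher and 20.0% lower, and 1 squamous marker had passed the filter only through day 9. From the day 9 mice, but not the day 0 mice, a squamous neo-epithelium was also sampled apart from rectum and anus. Which of these tissues the squamous transcripts came from was not tested. Without mouse 11 the squamous markers gave 1 higher and 1 lower, and up to 3 were lower with another mouse left out. Krt14, a basal keratin, was 7.16 to 25.3 TPM and then 323, 60.5 and 45.9 TPM (adjusted p = 0.00982, 0.0601 in the fit to all 19 rectal samples) and Krt5 was 0.613 to 9.44 TPM and then 131, 15.3 and 17.4 TPM (adjusted p = 0.0254), highest in mouse 11. The Krt5 call was lost without mouse 2 (adjusted p = 0.0552), 4 (0.0522) or 11 (0.064) and in the fit to all 19 rectal samples (0.163), whereas Krt13, a keratin of differentiated squamous cells, was not called (2.76 to 45.0 TPM, then 102, 13.6 and 13.4 TPM). Endothelial markers were higher in 2 of 6 tested, a share near the 33.5% of all genes, with 1 without mouse 11, 5 without mouse 12 and 0 without mouse 13. Neural and glial markers were higher in 2 of 2 tested, and in 0 without mouse 11 or mouse 13. The adipocyte genes Adipoq, Plin1 and Lep were listed at 0 in all 7 mice. Of 6 general markers of colonic epithelium 1 was higher and 2 lower, beside 33.5% higher and 20.0% lower of all genes. With TMM factors 0 were higher and 5 lower, so this count rests on the scaling. Krt8 was 4166 to 5044 TPM and then 3261, 2616 and 2977 TPM, and Krt19 was 3792 to 4916 TPM and then 2731, 2255 and 3002 TPM. The part of these cells in the changes above was not tested.

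To see where the rectal change was of its own size, it was set against that of the mid-colon of the same 7 mice, as the difference between the 2 log2 changes. Of 13520 genes, 885 (6.55%) were called, 790 with a higher change in rectum (5.84%) and 95 with a lower one (0.703%). With TMM factors the count was 1196, split into 773 higher and 423 lower, and without mitochondrially encoded genes 940, split into 708 and 232, so the number lower in rectum rests on the scaling. With the mouse as a replicate block the count was 1064 (920 higher, 144 lower), and without mouse 13 it was 250, without mouse 1 563, without mouse 2 509 and without mouse 3 512. Of the 373 tested list genes 77 were higher, 5 lower and 291 not called. The largest differences by the naming rule were in Saa3, Ccl4, Mmp10, Mmp13 and Hp. Saa3 was 75.2, 70.8 and 40.7 TPM in the mid-colon of mice 11, 12 and 13 and 1524, 3591 and 2306 TPM in their rectum, a difference of 5.44 ± 0.43 (SE, adjusted p = 2.11e-05). Mmp10 was 3.21, 2.26 and 2.06 TPM in injured mid-colon, where it rose by 1.39 rather than 5.85 (difference 4.45 ± 0.23, adjusted p = 1.87e-07), and Mmp13 rose there by 1.06 rather than 5.33. The call for Ccl4 was lost without any of mice 1 (0.09), 2 (0.0968), 3 (0.0919), 4 (0.085) or 13 (0.268).

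By list, the difference from mid-colon was called higher for 16 of 18 neutrophil genes, 15 of 19 monocyte and macrophage genes, 11 of 14 cytokines, 11 of 20 matrix and protease genes, 5 of 7 neutrophil-attracting genes and 4 of 10 enteroendocrine genes (5 with the mouse as a replicate block). Many of the immune genes had entered the test only through their high day 9 values. S100a8 reached 607, 1012 and 226 TPM in mid-colon, so it rose there too, by 8.68 on the log2 scale, and the difference was 3.28 ± 0.60 (adjusted p = 0.00424, 0.266 with a pseudocount of 0.1). Il1b reached 51.4, 188 and 26.7 TPM (difference 4.03 ± 0.81, adjusted p = 0.00735, 0.0734 without mouse 13), Lcn2 133, 63.0 and 19.5 TPM (3.77 ± 0.64, adjusted p = 0.00268) and Cd68 18.3, 20.1 and 20.6 TPM (1.55 ± 0.22, adjusted p = 0.000886). Mmp3 and Timp1 differed by 2.91 ± 0.30 and 2.30 ± 0.31. The interferon list had 0 of 16, with Isg15 at 25.4, 80.0 and 14.0 TPM in mid-colon and a difference of 2.37 ± 1.14 (adjusted p = 0.292, 0.0302 without mouse 11). The cell cycle list had 0 of 20 (5 with the mouse as a replicate block), and Rrm2 was 39.5, 83.1 and 54.2 TPM in injured mid-colon (difference -0.69 ± 0.34, adjusted p = 0.305). The goblet and xenobiotic lists had 0 each (2 xenobiotic genes with the block). A missed call does not show an equal change: Vdr fell by 3.66 in rectum and 3.04 in mid-colon (difference -0.61 ± 0.43, adjusted p = 0.501).

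**Figure D3:**
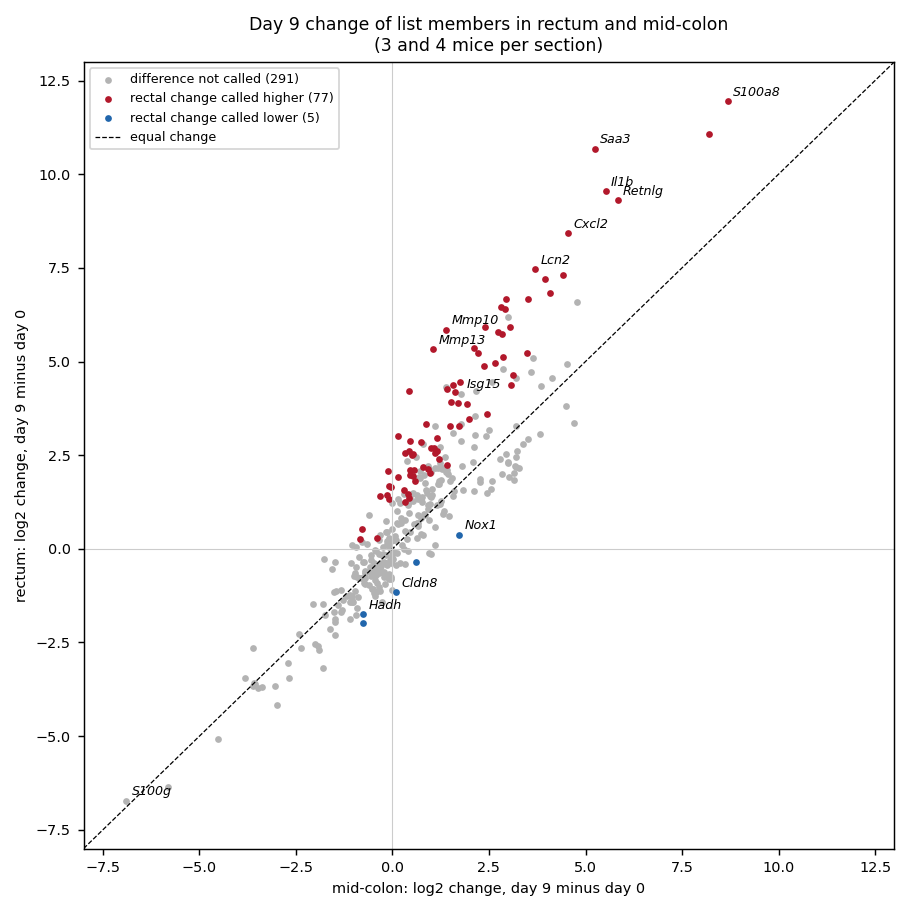
Log2 change at day 9 in rectum (vertical) against that in mid-colon (horizontal) for each tested list gene, 3 day 9 and 4 day 0 mice per section, with the line of equal change dashed. Red points (77) had a higher rectal change and blue points (5) a lower one; Saa3, Mmp10 and Mmp13 lie far above the line.

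The 5 genes named by the rule for a lower change in rectum were Defb45, Cbr3, Gsta3, Cbs and Nox1. Cbr3, a carbonyl reductase, was 23.6 to 29.4 TPM in uninjured and 9.18, 7.25 and 7.14 TPM in injured rectum, but 24.0, 19.0 and 26.7 TPM in injured mid-colon (difference -1.46 ± 0.26, adjusted p = 0.00326, 0.00645 with the block). Nox1, an epithelial oxidase, was not called in rectum (log2 change 0.38, adjusted p = 0.102) and stood in injured mid-colon at 13.6, 16.3 and 34.7 TPM (log2 change 1.72; difference -1.34 ± 0.37, adjusted p = 0.0447). Among list genes, Cldn8 stayed at 59.2, 39.4 and 52.3 TPM in injured mid-colon (difference -1.24 ± 0.31, adjusted p = 0.0244), and Cldn4, which rose in rectum, was 26.7, 38.8 and 23.6 TPM there (difference 1.73 ± 0.38, adjusted p = 0.0122). Hnf4g fell further in rectum (-1.99 against -0.76, difference -1.24 ± 0.27, adjusted p = 0.0126). Slc26a3 differed only with the mouse as a replicate block (difference -1.17 ± 0.50, adjusted p = 0.222, 0.00382 with the block) or without mouse 12 (0.0313). The calls for Nox1, Defb45, Gsta3 and Cbs were lost without each of mice 1 to 4 and 13 (without mouse 13, adjusted p 0.172, 0.0876, 0.301 and 0.253), and Gsta3 also with the block (adjusted p = 0.057). Without mouse 13 the calls for Cldn8 (0.201), Cldn4 (0.13) and Hnf4g (0.135) were lost too, and that for Cldn8 also without mouse 2 (0.0702), 3 (0.0797) or 4 (0.063).

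Several of these programs stood at their highest or lowest on day 9 among the 6 days sampled in rectum. These levels are a description with no test, over 4 mice at day 0 and 3 at each later day. The mean log2(TPM + 1) of the neutrophil list was 0.86, 0.81, 3.69, 6.27, 4.10 and 2.57 on days 0, 3, 6, 9, 14 and 20. That of the monocyte and macrophage list was 2.45, 2.28, 4.11, 5.41, 3.76 and 3.34. Both were flat while DSS had been given for 3 days and high in all 3 mice on day 9, with a wide spread on day 14 (2.45 to 5.34 for the neutrophil list). The cell cycle list first dipped and then rose, at 3.64, 2.23, 2.69, 5.67, 4.29 and 4.03, and Rrm2 was 1.10, 0.598 and 0.936 TPM on day 3 and 8.05, 1.21 and 1.72 TPM on day 6, before the 42.7 to 57.6 TPM of day 9.

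The absorptive colonocyte and xenobiotic lists stood lowest on day 9. The colonocyte list was 7.11, 6.80, 6.61, 5.17, 6.48 and 6.77 on the same 6 days, and the xenobiotic list 6.13, 5.66, 4.94, 3.90, 5.31 and 5.66. Single genes took different paths to that point. Vdr was 177, 247 and 300 TPM on day 3 and 93.4, 153 and 88.3 TPM on day 6, so it was falling before day 9, and 112, 108 and 263 TPM on day 20. Car1, a carbonic anhydrase of colonocytes, was above its day 0 range on days 3 (7455, 6655 and 5965 TPM) and 6 (6694, 5247 and 5205 TPM) before it fell to 1190, 1097 and 1168 TPM on day 9. Enteroendocrine genes rose earlier than they fell back, with list means of 2.95, 3.73, 4.82, 4.82, 4.08 and 3.43, and Gcg stood at 170, 133 and 216 TPM on day 6. The interferon list was as high on day 14 as on day 9 (2.35, 2.77, 4.14, 5.62, 5.60 and 4.46), with mice from 3.67 to 6.97 on day 9 and from 3.80 to 6.63 on day 14. The B and plasma cell list was highest after day 9 (3.08 on day 9, 4.27 on day 14 and 4.44 on day 20).

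**Figure D4:**
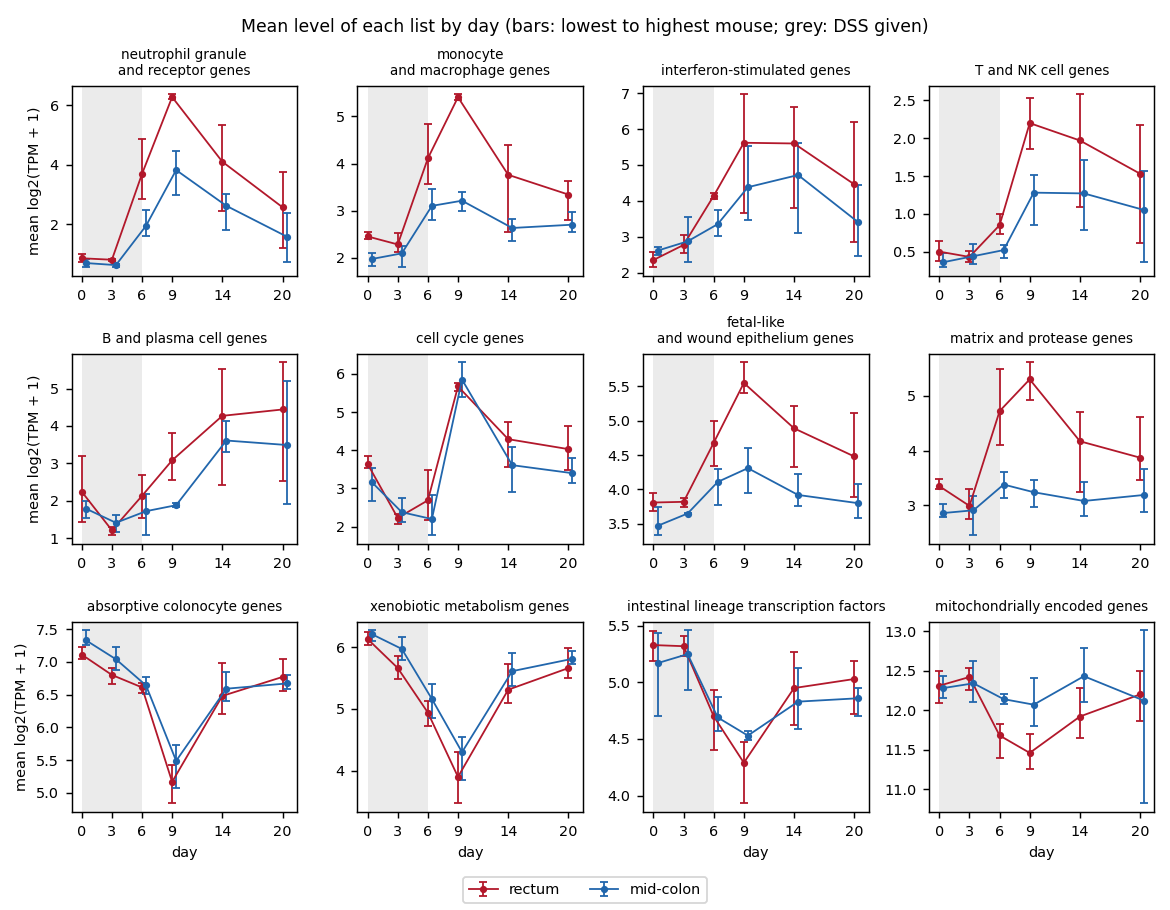
Mean log2(TPM + 1) of 12 gene lists on days 0, 3, 6, 9, 14 and 20 in rectum (red) and mid-colon (blue); points are means over 3 or 4 mice, bars run from the lowest to the highest mouse and grey marks the days of DSS. In rectum the neutrophil list peaks on day 9 (6.27), when the colonocyte list is lowest (5.17).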

How the data were processed

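Rectal mucosa was profiled by bulk RNA sequencing with stranded mRNA libraries read from one end over 75 bases. Per the submitters' processing notes, CASAVA, kallisto and the mm10 genome were used; no versions are given in the sources used here. The authors deposited TPM per transcript, whose unit is not stated in the file header and was recognised from columns that share 1 fixed sum once repeats are dropped; since these are shares without counts, the depth of a library is unknown and no counting interval can be given. The table had 126860 rows, of which 37344 held no values and 1318 repeated another. The 88198 transcripts left were summed to 30452 genes, leaving out 1284 transcripts without a gene (0.627% to 1.04% of TPM in the 7 rectal samples).

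Genes with at least 1 TPM in 3 or more samples were tested on log2(TPM + 1) with limma 3.58.1 (R 4.3.3, trended prior) and Benjamini-Hochberg adjustment over all genes tested, and called at an adjusted p under 0.05. The difference between rectum and mid-colon was an interaction term over 14 samples. The sections come from the same 7 mice. As a check, deviations of the 2 sections of a mouse from their group means correlated at a mean r of 0.184 across genes (-0.013 to 0.342), and a fit with the mouse as a replicate block was an alternative. Errors of log2 changes are SE.

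The largest changes named are the 12 in each direction that were called, had a mean of at least 8 TPM in the higher group, no overlap between groups and a proper symbol. For the difference between sections they are the 5 in each direction under like limits, with the mean reached in at least 1 group. The gene lists, their members and the comparison were chosen with earlier results of these data known. Promoters are from RefSeq (GRCm38.p6). The fits were tested on simulated data. Alternatives were TMM factors, a pseudocount of 0.1, no filter or one of 5 TPM, leaving out mitochondrially encoded genes, all 19 rectal samples in 1 fit, a minimum 2-fold change, and each mouse left out in turn. The last was repeated with the filter in 2 samples, which was chosen after seeing the data.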

Additional observations from a re-analysis of the deposited data

Results flagged for a closer look

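Among 59 sets of day 0 values checked, 8 had a mouse far from the other 3. The rule flags about 1 in 20 sets by chance when values are normally spread, which genes near 0 are not. Mouse 3 had the highest cell cycle list mean, 3.84 on the log2(TPM + 1) scale against 3.54 to 3.59, and also the highest S100g (599 TPM against 170 to 197 TPM) and Cyp2c55 (1190 TPM against 649 to 709 TPM). Mouse 4 had the lowest glycolysis list mean, 6.29 against 6.57 to 6.60. Mouse 1 had the highest skeletal muscle mean, 2.23 against 0.84 to 1.02. Retnlg (0.672 TPM in mouse 3), Cxcl2 (0.0697 TPM in mouse 4) and Ccl4 (0.114 TPM in mouse 2) were each listed at 0 in the other 3 day 0 mice. With 3 values of 0 the rule flags any value above 0, so these 3 sets had to be flagged.

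The day 9 change differed between rectum and mid-colon, by limma's interaction test, for 885 genes. Among genes that met the naming rule, the largest differences in log2 change with rectum higher were 5.44 for Saa3, 4.52 for Ccl4, 4.45 for Mmp10, 4.27 for Mmp13 and 4.14 for Hp. With rectum lower they were -2.02 for Defb45, -1.46 for Cbr3, -1.42 for Gsta3, -1.37 for Cbs and -1.34 for Nox1. The calls for Ccl4, Defb45, Gsta3, Cbs and Nox1 were lost without each of mice 1 to 4 and 13.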

How the results depend on the processing

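No named gene reversed its direction under any alternative run, but the balance of some lists turned. The B and plasma cell list went from 4 higher and 3 lower to 1 and 3 with TMM factors. Without mouse 12 or mouse 13 it had 0 higher and 3 lower. The stem cell list went from 4 higher and 2 lower to 3 and 3 without mouse 13. TMM factors also turned the balance of all calls (3656 higher, 3991 lower) and the sign of 2 list medians, glycolysis (0.12 to -0.08) and stem cell genes (0.08 to -0.05). Of 7028 genes called between day 9 and day 0, 3322 also passed a minimum 2-fold change, and other settings gave 5596 with a filter of 5 TPM to 7647 with TMM factors, and 5897 to 6874 with a mouse left out. Of 139 genes named as called, 9 lost the call in at least 1 setting, each named in the report with its values. With a day 9 mouse left out, genes near 0 at day 0 no longer passed the filter in 3 samples, so counts of members called higher fell. Over all single mice left out they ran from 5 to 18 for neutrophil genes, 2 to 6 for neutrophil attractants, 4 to 12 for cytokines, 7 to 12 for antimicrobial genes, 4 to 9 for T and NK cell genes and 8 to 13 for matrix and protease genes. With a day 9 mouse left out and the filter in 2 samples they ran from 18 to 18, 6 to 7, 12 to 16, 11 to 13, 9 to 10 and 12 to 17. With TMM factors 4 glycolysis genes were higher, and 11 tight junction genes and 5 of 6 colonic epithelium markers were lower.

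For the difference between sections, the 885 genes called became 1064 when mice entered as a replicate block, 1196 (773 higher, 423 lower) with TMM factors, 444 at a pseudocount of 0.1 and 250 to 953 with a mouse left out. Of 23 genes named there, 10 lost a call in some setting. Depth is unknown, and 3 or 4 mice per group limit precision.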
